A study of Mus musculus with 6 samples.

Results

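The kinesin genes of the mouse germinal vesicle (GV) oocyte were described across 6 RNA-seq libraries. GV oocytes are fully grown female germ cells held at prophase of meiosis. The genes were chosen by symbol: protein-coding rows named Kif with a number and optional letters, or Kifc with a number. This gave 39 of the 25353 genes in the deposited table, with pseudogenes, the antisense gene Kif16bos, the adaptor Kifap3 and the Kifc1 copy Kifc5b outside the rule. Of these, 38 encode kinesin motors, and Kif1bp encodes a protein that binds a kinesin and is no motor itself. There were 3 wild-type (WT) and 3 knockout (KO) libraries, and a library holds the RNA of 5 C57BL/6J oocytes. The design text gives an age of 8 weeks, whereas the age field reads P1. The title and design text of the series name the deleted gene as Mfn2 (Mfn2-/-), and the genotype field of the KO samples reads Mfn1-/-. The protocol text also names Mfn1. Mfn2 encodes mitofusin 2, a mitochondrial fusion protein, and Mfn1 encodes its relative mitofusin 1. The labels name no Cre driver and do not tie each pool to its own mouse, so the p-values measure the spread between pools, which may be technical.

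Kinesins are motors that turn ATP hydrolysis into movement along microtubules or into the removal of tubulin from microtubule ends. One set works on dividing cells: it slides and bundles spindle microtubules, carries chromosome arms, depolymerizes microtubules at kinetochores and builds the midzone where a cell is cut apart. Others carry vesicles, organelles, mitochondria and RNA, or serve cilia and hedgehog signalling. In the oocyte the spindle is built without centrosomes and the first division cuts off a small polar body, so the division motors are used soon after the GV stage ends.

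Most kinesins hold a phosphate-binding loop (Walker A motif) that grips ATP. The coding bases of the loop are shown for the members the results turn on, with the codons of the loop in capitals and 12 flanking coding bases on each side in lower case. They come from GENCODE M21 transcripts (GRCm38), 5′ to 3′ on the coding strand.
Kif20b: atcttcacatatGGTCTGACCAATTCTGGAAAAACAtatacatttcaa
Kif23: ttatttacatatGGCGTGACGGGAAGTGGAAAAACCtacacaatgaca
Kif22: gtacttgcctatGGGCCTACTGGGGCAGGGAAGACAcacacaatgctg
Kif4: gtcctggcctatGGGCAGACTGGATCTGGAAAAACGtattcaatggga
Kif18a: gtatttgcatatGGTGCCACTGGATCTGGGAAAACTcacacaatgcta
Kif2a: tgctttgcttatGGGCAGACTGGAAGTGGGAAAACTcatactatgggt
Kif2c: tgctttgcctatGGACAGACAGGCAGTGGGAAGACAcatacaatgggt
Kif17: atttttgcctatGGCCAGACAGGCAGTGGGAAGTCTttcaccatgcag
Kifc1: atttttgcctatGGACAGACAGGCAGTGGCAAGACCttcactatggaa
Kifc5b: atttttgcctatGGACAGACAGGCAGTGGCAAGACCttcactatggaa
The Kif20b stretch lies at chr19:34929774-34929821 (plus strand), that of Kif23 at chr9:61937166-61937213 (minus) and that of Kif4 at chrX:100633853-100633900 (plus), each inside a single coding exon. The loop was found in 35 of the 39 members, and not by this search in Kif19a, Kif26a, Kif26b or Kif1bp. The 35 loops were all different from each other, by 2 to 14 of their 24 bases (median 7.0), and 8 of the 24 positions held the same base in all 35. Kifc5b, a copy of Kifc1 that the naming rule leaves out, had the same loop as Kifc1, and 12 of the 92 windows of 75 bases in the Kifc1 transcript also match Kifc5b with at most 1 mismatch. Reads in those windows may not be separable between Kifc1 and Kifc5b, so both counts are uncertain.

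Library totals over all genes ran from 6450191 to 7992598 reads. Mfn2 had normalized read counts (reads scaled by the authors' size factors) of 25.5, 38.1 and 32.3 in WT and 5.25, 5.28 and 4.50 in KO (log2 fold change -2.44, SE 0.38, limma adjusted p = 0.00487), and Mfn1 had 363, 298.5 and 360 in WT and 398, 382 and 379 in KO (0.19, SE 0.13, adjusted p = 0.482). KO throughout means the libraries labelled so. All 12 oocyte markers had reads in every library, with summed CPM (a library's reads scaled to a common total) of 16018 to 19426 in WT and 12946 to 19104 in KO, lowest in KO replicate 1. Summed CPM of 12 granulosa cell markers was 89.3 to 117 in WT and 76.7 to 99.0 in KO. Amh and Foxl2 were at 0 in some libraries of both groups. All the other granulosa markers had reads in every library, the highest being Cyp19a1 at 43.7 to 60.3 CPM. Theca and luteal markers (4 of 6 listed) summed to 264, 2.49 and 43.7 in WT and to 1.37, 3.02 and 7.88 in KO, and 2 of the 3 tested, Cyp11a1 and Lhcgr, fell (limma adjusted p = 0.0135 and 0.0317), as did the stromal gene Dcn (0.0244). The stromal and endothelial list (9 genes) spanned 31.6 to 40.6 in WT and 25.5 to 38.5 in KO, the immune and blood list (4 of 7) 3.28 to 7.60 and 1.81 to 2.58, and the ciliated epithelium list (8 of 9) 22.3 to 26 and 21.1 to 28. Their part in the kinesin values was not tested.

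The oocyte held division motors at high levels, together with a pair of transport motors. Levels are compared here as normalized read count per kb of annotated exon, a scale that understates genes with long exons that the oocyte does not use. Kif17, a dendrite and germ-cell transport motor of the kinesin-2 class, was the highest at a WT mean of 729 per kb. It was followed by Kif22 (584), a chromosome-arm motor, Kif23 (394), a midzone motor, Kif4 (301), a chromosome-associated motor, Kif2c (276), a kinetochore microtubule depolymerase, and Kif20b (232), a midzone motor. Kif20a (188), Kif18a (134) and the ciliary and vesicle motor Kif3a (133) came next. These 9 lay between the 84.9th and the 96.2nd percentile of protein-coding genes in the table. Kif4 and Kif20a share 15.1% and 29.3% of their exonic bases with opposite-strand genes, and their levels may include reads of those genes.

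The division motors had a median WT level of 134 per kb over 13 genes, the transport motors 8.49 over the 13 tested, and the signalling and cilia motors 2.80 over the 7 tested. The median over all tested protein-coding genes was 15.3. A mean of at least 1000 normalized read counts over the 6 libraries was reached by 7 members, and 6 of those were division motors. All 13 division motors had a mean of at least 20, and none of the 13 members below 20 was a division motor. Kif17, Kif23 and Kif22 together made up 48.9% of the normalized reads of the family in WT.

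**Figure D1:**
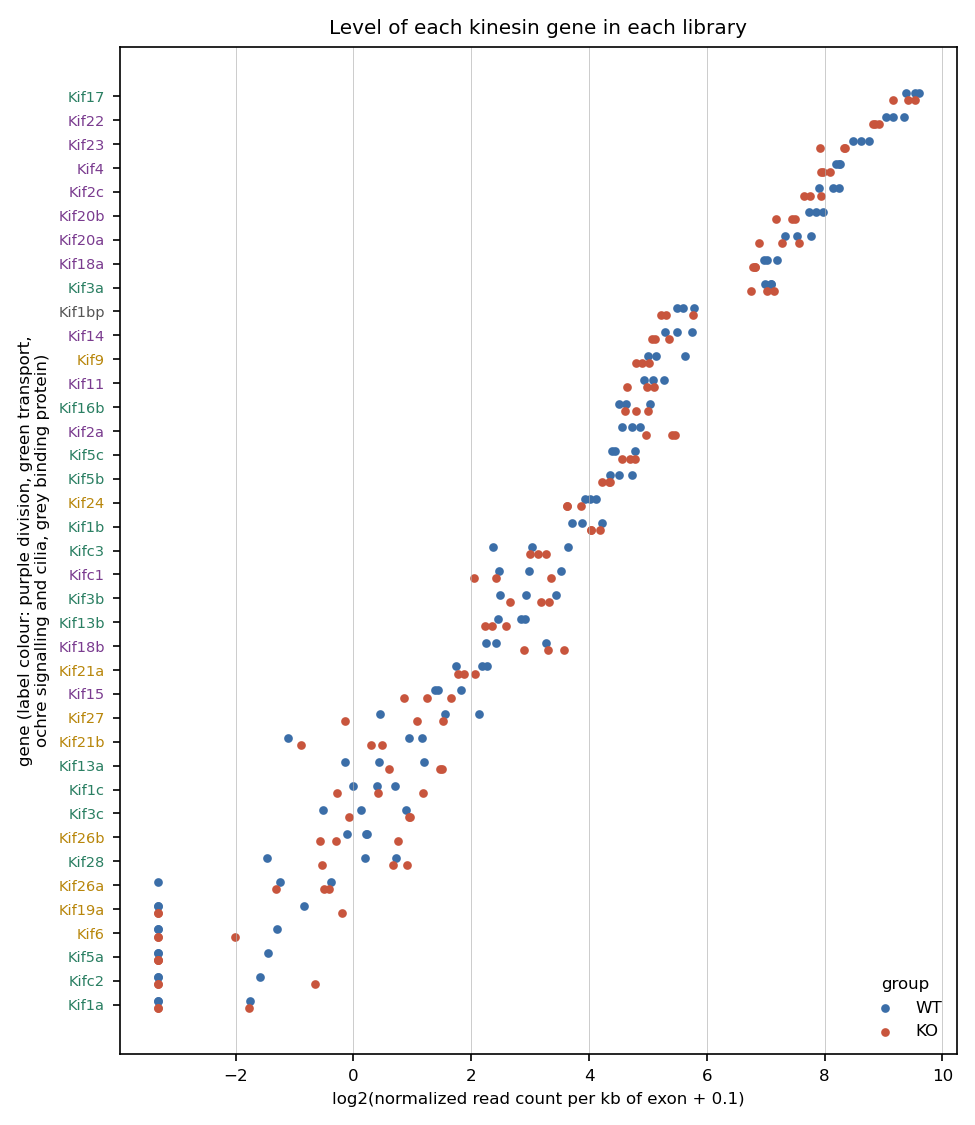
Level of each of the 39 genes in each library, as log2 of the normalized read count per kb of exon plus 0.1 (x axis), ordered by the WT mean per kb. Each point is 1 library, WT in blue and KO in red; Kif17, at a WT mean of 729 per kb, is at the top, and points at the far left are counts of 0.

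At the other end, 5 members had at most 3 reads in any library and were not tested. These were the neuronal transport motors Kif1a and Kif5a, the kinesin-14 Kifc2 and the ciliary motors Kif6 and Kif19a. A count of 0 allows up to 3 reads, so their expression was not detectable at this depth. The remaining 34 members passed the filter of a normalized read count of at least 1 in 3 libraries. A gene near that limit could pass through a single group, and the counts below are of the 34, not of the family. Kif7, Kif12 and Kif2b were not analysed here.

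One of the 34 kinesin genes fell in KO and none rose, by limma on log2(value + 1) with Benjamini-Hochberg adjustment over all 18762 genes tested and a threshold of 0.05. Of all genes tested, 1.41% fell and 1.87% rose, 3.28% together. The gene that fell was Kif20b, a division motor. At an unadjusted p under 0.05, 7 members were lower in KO and 1, Kif2a, was higher, where 8.83% of all genes were lower and 9.16% higher (18% in all). All 8 were division motors, which were 13 of the 34 members tested. Their standard errors were at most 0.16 (Kif2a), whereas those of low members of other roles reached 0.68 (Kif26a). A change of the same size was thus harder to detect in low members, and role was not separated from level. A count test on the whole reads recovered from the values, edgeR, also called Kif20b alone (edgeR called 2.58% of its genes as falls and 3.45% as rises, 6.03% in all). DESeq2 called Kif20b, Kif22 and Kif23 as falls and Kif2a as a rise (3.61% and 4.17% of its genes, 7.79% in all).

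The median log2 fold change was -0.19 over the 34 tested members and -0.01 over all 18762 genes. By role it was -0.30 over 13 division motors, 11 of them below 0, 0.10 over 13 transport motors, 4 of them below 0, and -0.32 over 7 signalling and cilia motors, 6 of them below 0. The difference between roles was not tested. KO and WT values did not overlap in 7 members, with KO lower in 6 (Kif20b, Kif23, Kif22, Kif4, Kif18a and Kif24) and higher in 1 (Kif2a). Over all tested genes this was so for 11.7% with KO lower and 11.5% with KO higher, 23.2% in all. In a pool of oocytes, fewer cells of a type and less RNA per cell cannot be told apart.

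**Figure D2:**
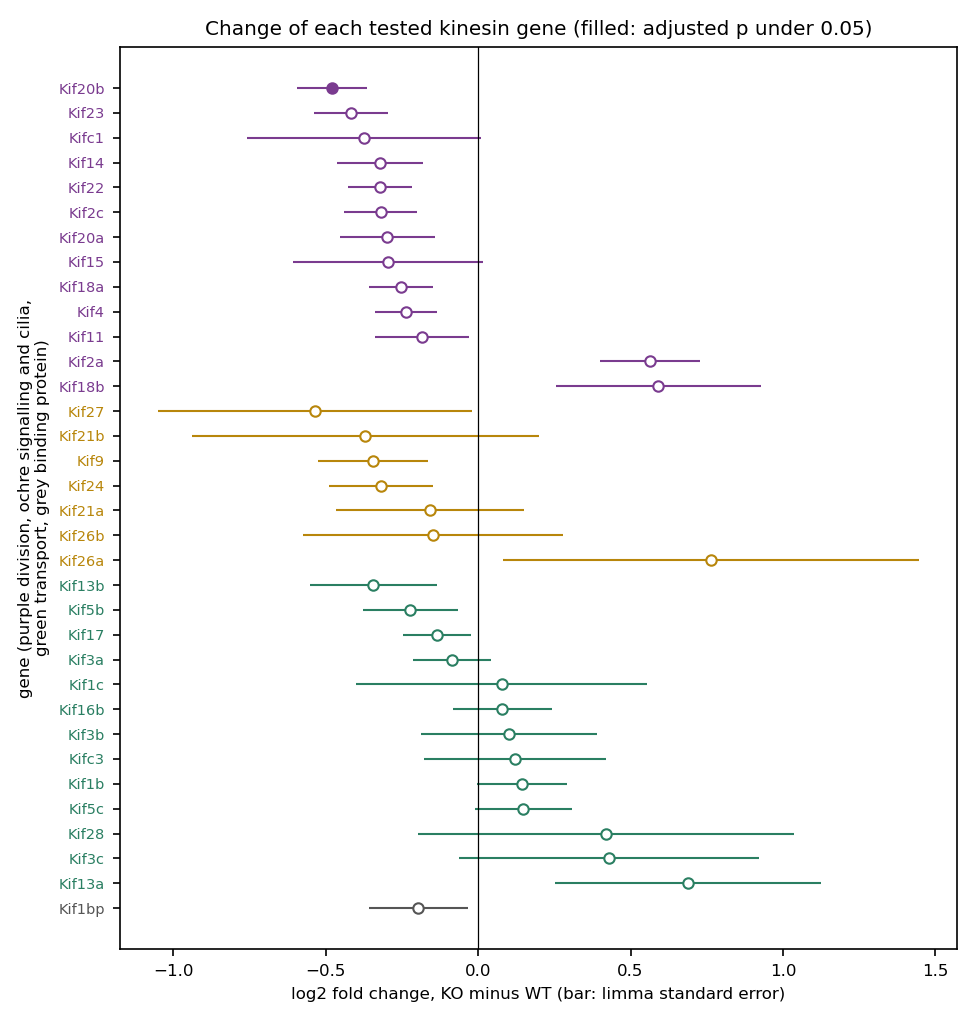
Log2 fold change of the 34 tested genes, KO minus WT (x axis), with the limma standard error as the bar, grouped by role. The filled point, Kif20b at -0.48, is the only one with an adjusted p under the threshold of 0.05; the other points of the division group lie below 0 except Kif2a and Kif18b.

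Summed over the 13 division motors, the normalized read count was 13423, 12754 and 14500 in WT and 10169, 11042 and 11387 in KO. Every KO library lay below every WT library, and KO replicate 1 was the lowest. This library also had the lowest oocyte, granulosa, theca and luteal, stromal and ciliated marker sums. Among its oocyte markers, Zp1, Zp2, Zp3, Figla and Nobox were at their lowest of any library, and Oosp1 and Kit at their highest. A link of these sums to the division motors was not tested. KO replicate 1 was the lowest library for 5 of the 13 and KO replicate 2 for 4. Summed over the 16 transport motors, the normalized read count was 4760, 4929 and 4984 in WT and 4094, 4723 and 4999 in KO, and the groups overlapped. The sum of the 9 signalling and cilia motors was 391, 387 and 342 in WT and 274, 310 and 308 in KO. These groups did not overlap either (-20.4%), nor did those of the sum of all 39 genes (-16.2%). The mean division sum was 13559 ± 881 for WT and 10866 ± 628 for KO (SD over 3 libraries), a difference of -19.9%. These sums weigh the abundant genes most, and Kif23 and Kif22 alone are a large part of the first.

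Kif20b (chromosome 19, 34922361 to 34975745, plus strand, GRCm38), a kinesin-6 that bundles midzone microtubules and is needed for abscission, fell. It had 1615, 1477 and 1753 normalized read counts in WT and 1006, 1220 and 1253 in KO. All 3 KO libraries lay below all 3 WT libraries, with KO replicate 1 the lowest. The mean went from 1615 ± 138 to 1160 ± 134 (SD over 3 libraries), a difference of -28.2%. The log2 fold change of Kif20b was -0.48 ± 0.12 (SE), with an adjusted p of 0.0329 in limma and 0.0282 in edgeR. The counts rest on 958 to 1898 reads per library, and none of its 75-base windows matched another gene. Any one of 4 libraries, when left out, ended the call: WT replicate 1 (limma adjusted p = 0.103), 2 (0.0713) or 3 (0.153) and KO replicate 2 (0.0632). The log2 fold change stayed between -0.63 and -0.38 over the 21 alternatives.

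Kif20b belongs to a trio of kinesin-6 motors. Kif23, the motor subunit of centralspindlin, which brings the cytokinesis signal to the midzone, had 3091, 2829 and 3408 in WT and 1916, 2546 and 2567 in KO. The groups did not overlap, and KO replicate 1 stood lowest by a wide margin. Kif23 had a log2 fold change of -0.42 ± 0.12 (SE) and did not pass in limma (adjusted p = 0.0725), though it did in DESeq2 (0.0266), and without KO replicate 1, where 2.39% of all genes fell and 2.55% rose, it was -0.28 and Kif20b was still the single kinesin called. Kif20a, a midzone motor that carries the chromosomal passenger complex, had 806, 693 and 945 in WT and 516, 672 and 820 in KO. These groups overlapped, since KO replicate 3 lay above WT replicates 1 and 2 (log2 fold change -0.30, SE 0.16, limma adjusted p = 0.335). Kif20a also overlaps Cdc23 on the opposite strand over 29.3% of its exonic bases, and the library kit keeps no strand, so their reads cannot be told apart there. Cdc23 had a log2 fold change of -0.32 (SE 0.17, limma adjusted p = 0.347).

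Kif22 and Kif4, both chromokinesins, were at lower values in KO without passing the limma test. Kif22, which pushes chromosome arms toward the spindle equator, had 2592, 2799 and 3201 in WT and 2372, 2264 and 2221 in KO. The groups did not overlap and the KO libraries lay close together. The log2 fold change of Kif22 was -0.32 ± 0.11 (SE), with an adjusted p of 0.107 in limma and 0.0407 in DESeq2. Kif4, the X-linked chromokinesin that sets midzone length, had 1677, 1690 and 1607 in WT and 1350, 1496 and 1379 in KO, again without overlap. Kif4 differed by -0.24 ± 0.10 (SE) on the log2 scale and did not pass (adjusted p = 0.224 in limma). It overlaps the opposite-strand gene Pdzd11 over 15.1% of its exonic bases, where their reads cannot be told apart, and 9.14% of its windows match Pdzd11. Pdzd11 had a WT mean of 789 per kb (log2 fold change -0.07, SE 0.10, limma adjusted p = 0.789).

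Kif18a, a kinesin-8 that dampens chromosome movement by shortening kinetochore microtubules, had 1232, 1274 and 1436 in WT and 1105, 1088 and 1108 in KO. The KO libraries were almost equal and below every WT library (log2 fold change -0.25, SE 0.10, limma adjusted p = 0.21). After correction of each library for GC content and length, Kif18a had a log2 fold change of -0.41 (limma adjusted p = 0.0353). Its relative Kif18b was far less abundant, at 18.9, 16.7 and 34.2 in WT and 26.3, 34.9 and 42.3 in KO. Those groups overlapped, with a log2 fold change of 0.59 (SE 0.34, limma adjusted p = 0.379).

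The kinesin-13 class, which removes tubulin from microtubule ends instead of walking, had 3 members in the table, with Kif2a above 0 and Kif2c and Kif24 below. Kif2a (chromosome 13, 106958996 to 107022126, minus strand), which acts at spindle poles and in axons, had 150, 185 and 169 in WT and 282, 199 and 272 in KO. Every KO library lay above every WT library, though KO replicate 2 was close to WT replicate 2. The WT mean was 168 ± 17.7 and the KO mean 251 ± 45.5 (SD over 3 libraries). The log2 fold change was 0.56 (SE 0.16) and did not pass in limma (adjusted p = 0.0691) or in edgeR (0.0538), but did in DESeq2 (0.0399) and, in limma, without KO replicate 2 (0.0428). Kif2a overlaps Dimt1 on the opposite strand over 19.2% of its exonic bases, where their reads cannot be told apart, and 17.6% of its windows match Dimt1. Dimt1 had 120, 139 and 123 in WT and 159, 175 and 122 in KO (log2 fold change 0.24, SE 0.17, limma adjusted p = 0.513).

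Kif2c, the kinetochore and centromere depolymerase, had 1331, 1042 and 1237 in WT and 875, 938 and 1074 in KO. The groups touched, with KO replicate 3 above WT replicate 2 (log2 fold change -0.32, SE 0.12, limma adjusted p = 0.164). Within each library, the level of Kif2a per kb over that of Kif2c was 0.0768, 0.121 and 0.0932 in WT and 0.220, 0.144 and 0.173 in KO, so that the groups did not overlap. This ratio and that of Kif20b over Kif20a were chosen after the values were seen. The exact two-sided permutation p was 0.1, the smallest that 3 libraries against 3 allow, and 0.2 after adjustment over the 2 ratios. The ratio of Kif20b to Kif20a was 1.25, 1.33 and 1.16 in WT and 1.22, 1.13 and 0.952 in KO, with overlap (exact permutation p = 0.2).

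**Figure D3:**
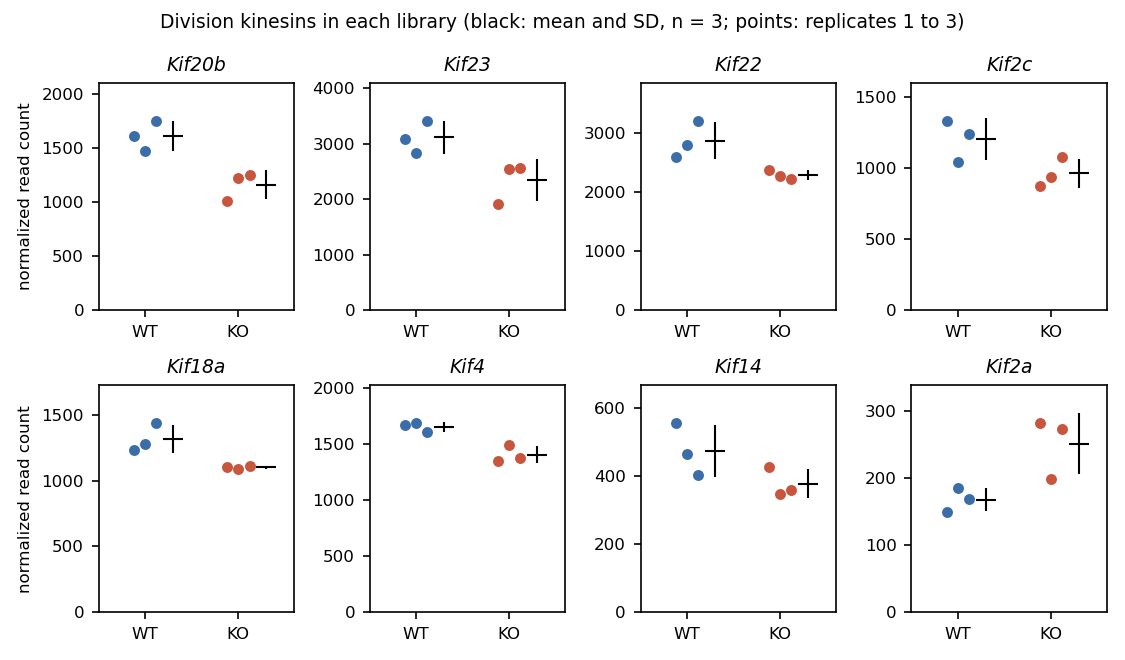
Normalized read count (y axis, from 0) of 8 division motors in each library, with WT in blue, KO in red and the mean and SD in black (n = 3 each). Kif20b, Kif23, Kif22, Kif18a and Kif4 have every KO point below every WT point, Kif2a has every KO point above, and Kif2c and Kif14 overlap.

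The remaining division motors were Kif14, Kif11, Kif15 and Kifc1. Kif14, which recruits the abscission kinase citron, had 556, 465 and 403 in WT and 426, 349 and 358 in KO (log2 fold change -0.32, SE 0.14, limma adjusted p = 0.236). KO replicate 1 lay above WT replicate 3, so the groups overlapped. Kif11, the kinesin-5 that pushes spindle poles apart, had 288, 228 and 253 in WT and 235, 187 and 257 in KO, and the groups overlapped (-0.18, SE 0.16, limma adjusted p = 0.591). Kif15, a kinesin-12 that can stand in for Kif11, had 28.8, 38.1 and 27.7 in WT and 25.2, 33.8 and 18.9 in KO (limma adjusted p = 0.684). Kifc1, a minus-end motor that focuses spindle poles, had 38.8, 18.6 and 26.8 in WT and 34.7, 13.7 and 18 in KO (limma adjusted p = 0.674). Its copy Kifc5b was at 0 reads in all WT libraries and at 4.20, 3.17 and 1.80 normalized read counts in KO, close to the limit that a count of 0 allows.

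Most division motors with a promoter window held a sequence element there that the choice of genes did not use. The cell cycle genes homology region (CHR, TTTGAA on either strand) is a binding element of the DREAM and MuvB complexes that time transcription in G2 and mitosis. In RefSeq promoter windows (GRCm38.p6, 250 bases before to 50 bases after the start), it was present in 10 of 12 division motors (83.3%), 1 of 10 transport motors and 2 of 7 signalling and cilia motors (28.6%). Of all 32851 promoter windows of this length, 17.9% held it. A kinesin gene was counted if any of its windows matched, whereas that share is per window. The Kif14, Kif2c, Kif27 and Kif1a matches lie in windows inside the deposited span of the gene, away from its outer 5′ end. The Kif4 window (chrX:100625815-100626114) also lies inside the deposited span, close to its start at 100625737. The CCAAT box (CCAAT on either strand) was present in 7 of 12 division motors (58.3%), 3 of 10 transport motors and 4 of 7 signalling and cilia motors (57.1%), and in 37.4% of all windows. The division motors without a CHR match were Kif2a, in both of its windows, and Kif18a. Of the 39 members, 30 had a window in this table. The difference between roles was not tested. A match is a description of the letters and no evidence of binding, and the windows were not measured in these libraries.

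The windows of Kif20b, Kif23 and Kif22, the members with the lowest p-values among those below 0, and that of Kif2a, the member with the lowest p-value among those above 0, are printed 5′ to 3′ on the gene's strand, with CHR and CCAAT matches in capitals.
Kif20b, chr19:34922108-34922407, plus strand: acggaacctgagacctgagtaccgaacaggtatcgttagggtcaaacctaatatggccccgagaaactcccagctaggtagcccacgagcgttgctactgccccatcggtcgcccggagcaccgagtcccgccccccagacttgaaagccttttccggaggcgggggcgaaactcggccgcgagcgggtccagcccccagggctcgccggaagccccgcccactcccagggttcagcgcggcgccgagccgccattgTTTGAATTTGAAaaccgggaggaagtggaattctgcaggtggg
Kif23, chr9:61946750-61947049, minus strand: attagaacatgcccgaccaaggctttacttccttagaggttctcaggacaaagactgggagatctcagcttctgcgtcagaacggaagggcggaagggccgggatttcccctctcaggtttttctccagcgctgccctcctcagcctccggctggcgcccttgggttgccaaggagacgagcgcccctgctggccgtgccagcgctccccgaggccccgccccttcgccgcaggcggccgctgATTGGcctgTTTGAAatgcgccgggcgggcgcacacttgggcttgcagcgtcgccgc
Kif22, chr7:127042371-127042670, minus strand: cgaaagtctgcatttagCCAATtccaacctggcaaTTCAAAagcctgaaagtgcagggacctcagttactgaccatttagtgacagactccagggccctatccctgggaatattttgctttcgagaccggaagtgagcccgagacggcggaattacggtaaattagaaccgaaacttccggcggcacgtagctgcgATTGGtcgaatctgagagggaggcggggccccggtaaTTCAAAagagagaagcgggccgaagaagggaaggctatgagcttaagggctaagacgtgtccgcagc
Kif2a, chr13:107022065-107022364, minus strand: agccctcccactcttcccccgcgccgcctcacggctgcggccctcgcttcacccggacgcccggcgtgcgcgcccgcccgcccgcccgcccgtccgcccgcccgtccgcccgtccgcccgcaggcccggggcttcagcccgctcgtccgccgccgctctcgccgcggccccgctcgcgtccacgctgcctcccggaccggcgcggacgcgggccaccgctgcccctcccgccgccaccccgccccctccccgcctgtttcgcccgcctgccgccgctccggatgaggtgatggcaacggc
Kif20b held 2 adjoining CHR matches, Kif22 held 2 CHR and 2 CCAAT matches, and Kif23 held 1 of each.

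No transport motor passed the test, and none had an unadjusted p under 0.05 in limma. Kif17, the most abundant kinesin of the oocyte, had 3065, 3395 and 3561 in WT and 2638, 3136 and 3392 in KO, and KO replicate 1 alone lay below the WT range (log2 fold change -0.13, SE 0.11, limma adjusted p = 0.589). Kif3a, which pairs with Kif3b in the heterotrimeric kinesin-2 of intraflagellar transport, had 487, 458 and 486 in WT and 386, 466 and 504 in KO, and its partner Kif3b stood at 31.1, 60.4 and 42.5 and at 50.4, 56.0 and 35.1. The groups overlapped for both (limma adjusted p = 0.785 and 0.898). The third subunit, Kifap3, which is no motor, was at 13.9 to 27.7 in WT and 14.8 to 17.1 in KO.

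Among the conventional kinesins, which move mitochondria and other cargo, Kif5b had 162, 212 and 180 in WT and 163, 161 and 148 in KO (log2 fold change -0.22, SE 0.16, limma adjusted p = 0.497). Kif5c had 195, 154 and 149 in WT and 185, 197 and 168 in KO (0.15, SE 0.16, limma adjusted p = 0.688). Both pairs of groups overlapped. Kif1b, a kinesin-3 with a mitochondrial cargo isoform, lies 1.27 Mb from Mfn2 on chromosome 4. It had 327, 257 and 230 in WT and 317, 287 and 286 in KO (0.14, SE 0.15, limma adjusted p = 0.673). Kif1bp, whose product binds the KIF1B motor, had 269, 221 and 236 in WT and 182, 194 and 265 in KO (-0.20, SE 0.16, limma adjusted p = 0.583). The endosomal motor Kif16b had 298, 223 and 206 in WT and 221, 253 and 290 in KO (0.08, SE 0.16, limma adjusted p = 0.853). The remaining 6 tested transport motors had WT means from 3.40 to 86.3 normalized read counts, and their log2 fold changes ran from -0.34 (Kif13b) to 0.69 (Kif13a).

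Signalling and cilia motors were low in the oocyte apart from Kif9 and Kif24. Kif9, a motor of sperm and cilia, had 212, 151 and 138 in WT and 120, 128 and 139 in KO. WT replicate 1 was the highest library for Kif9, and KO replicate 3 lay above WT replicate 3 (log2 fold change -0.34, SE 0.18, limma adjusted p = 0.334). WT replicate 1 also had the highest oocyte, granulosa, theca and luteal, stromal and immune marker sums. Its ciliated epithelium sum was the lowest in WT (22.3 CPM), and a link to Kif9 was not tested. Kif24, a kinesin-13 that restrains cilium assembly at the mother centriole, had 130, 139 and 121 in WT and 97.7, 116 and 98.0 in KO. The groups did not overlap (-0.32, SE 0.17, limma adjusted p = 0.344). Kif21a, Kif21b, Kif26a, Kif26b and Kif27 had at most 30.5 normalized read counts in any library, and their groups overlapped.

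Lists of genes that work with kinesins were counted in the same fit, in which 1.41% of all genes fell and 1.87% rose, and 8.83% were lower and 9.16% higher at an unadjusted p under 0.05. Of 12 tested kinesin light chains and cargo adaptors, none rose and 1 fell. This was Fez2, a kinesin-1 adaptor, at 167, 175 and 167 in WT and 107, 127 and 80.0 in KO (log2 fold change -0.72, SE 0.18, limma adjusted p = 0.0433). In this list 4 genes were higher and 1 lower at an unadjusted p under 0.05. Rhot2, a mitochondrial anchor for kinesin adaptors named here after its values were seen, did not pass in limma (0.82, SE 0.23, adjusted p = 0.0616) but was called as a rise by edgeR (0.0406) and DESeq2 (0.0488). It had 48.8, 45.6 and 47.1 in WT and 64.1, 108 and 85.4 in KO, without overlap. Of 36 cytoplasmic dynein and dynactin genes, which serve the opposing motor, none passed in limma, edgeR or DESeq2, with 4 higher and 2 lower at an unadjusted p under 0.05. The dynein light chains Dynll2 (-0.34, adjusted p = 0.113) and Dynll1 (0.26, 0.157) had the smallest limma p-values. Of 16 tested tubulins, the track proteins, 4 were lower and 0 higher at an unadjusted p under 0.05, and 2 fell and none rose. These were Tuba3a by 0.63 (SE 0.11, limma adjusted p = 0.00775) and Tuba3b by 1.14 (SE 0.23, limma adjusted p = 0.0145). Tuba3b did not pass in DESeq2 (adjusted p = 0.0627), where Tuba3a was the only tubulin called. Both belong to a family of close copies, and 8.62% of the Tuba3a windows and 5.80% of the Tuba3b windows match another gene, so their counts are uncertain.

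Of 19 partners and regulators of the division motors, 3 fell and none rose (7 lower and 0 higher at an unadjusted p under 0.05). This list, like the other partner lists, was chosen with earlier results of these data known, so its counts are a description only. Cenpe, a kinetochore motor of the kinesin-7 class that the symbol rule does not take in, had 3463, 3416 and 3373 in WT and 2066, 2548 and 2181 in KO. The groups were far apart, and Cenpe fell by 0.60 (SE 0.10, limma adjusted p = 0.00674). The microtubule polymerase Ckap5 fell by 0.69 (SE 0.12, limma adjusted p = 0.0066) and the spindle assembly factor Tpx2 by 0.43 (SE 0.11, limma adjusted p = 0.0451). The median log2 fold change of the 19 was -0.13, of the tubulins -0.15, of the light chains and adaptors 0.04 and of the dynein list -0.04.

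The fold changes of the 10 kinesins picked by the naming rule kept their sign in the 21 alternatives, and which of them passed depended on the setting. Some of the alternatives, such as other filters, leave the fold change unaltered by construction. Corrected for GC content and length, Kif20b, Kif23 and Kif18a fell, where 1.76% of all genes fell and 1.54% rose. With that correction 46.7% of all calls were rises, against 57.1% as reported and 73.5% with scaling to the library totals (0.938% of genes fell and 2.6% rose). Kif20b passed in both of those fits, with log2 fold changes of -0.63 and -0.42.

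**Figure D4:**
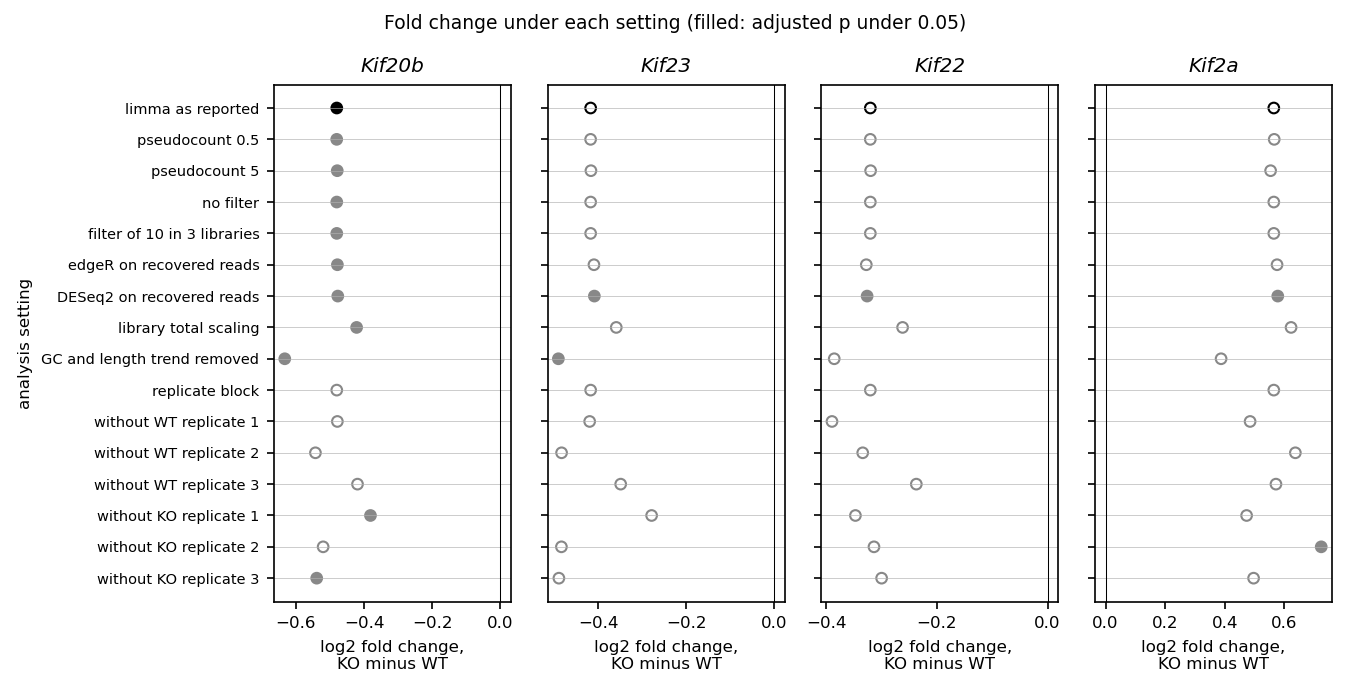
Log2 fold change, KO minus WT (x axis), of Kif20b, Kif23, Kif22 and Kif2a under the reported analysis (top, black) and the alternatives named on the y axis (grey). Filled points have an adjusted p under 0.05; among these settings Kif20b is open with the replicate block and without WT replicate 1, 2 or 3 or KO replicate 2, and Kif2a is filled with DESeq2 and without KO replicate 2.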

How the data were processed

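Per the labels' protocols, cDNA of 5 oocytes was amplified by Smart-Seq2 from poly(A) priming and sequenced as 75-base pairs from Nextera XT libraries, which keep no strand and no molecular identifiers. Per the submitters' processing notes, cutadapt, FastQC, STAR, DESeq, DESeq2, GRCm38 and mm10 were used, while their versions and the counting settings are not stated there. Per the file headers, the deposited values are a signal: read counts per gene, which the authors scaled by DESeq2 size factors in Partek. Whole reads were recovered for 100% of values above 0, within 0.1 reads.

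Groups and replicates follow the sample titles. The 18762 genes that reached 1 in at least 3 libraries were compared as log2(value + 1) with limma-trend 3.58.1 in R 4.3.3, all 6 libraries and no covariate, with Benjamini-Hochberg adjustment over all genes and a threshold of 0.05. This scale understates the change of low genes. Alternatives were edgeR 4.0.16 with TMM and DESeq2 1.42.0 on recovered reads, other pseudocounts, filters and scalings, a replicate block and each library left out. Only the main limma fit and the edgeR fit were run on simulated counts, with the same spread setting for every gene, and the outcome is not given here. Gene ends are printed as the base before the deposited end, which equals GENCODE M21 in 38 of 39 members. Windows of 75 bases were compared with all M21 transcripts by minimap2 2.31-r1302. Counting limits cover counting error only.

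The kinesin genes, their roles and the partner and marker lists were chosen with earlier results of these data known. Genes are named if they passed, had an unadjusted p under 0.05, had groups that did not overlap at a mean of at least 20, or were among the 5 highest per kb, and others are given by role. From each partner list up to 4 genes that passed are named, or the 2 of smallest p.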

Additional observations from a re-analysis of the deposited data

How the results depend on the processing

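Over 21 alternatives for each of the 10 kinesin genes that the naming rule picks, 193 of 210 values kept their direction and side of the threshold, 10 lost the call (all of Kif20b), 7 gained one and none changed sign. Kif20b, the only one called in the main fit, thus lost its call in 10 of its 21 alternatives. For the other genes, the same side means no call. The filter settings and the replicate block leave the fold change of the main fit unaltered, so they could not change a sign. DESeq2 gave 401 falls over all genes and, among kinesins, 3 falls and 1 rise. Corrected for GC content and length, 3 kinesins fell. With the replicate block 175 genes fell over all and 0 kinesins (Kif20b adjusted p = 0.0523). The deviations of same-numbered WT and KO libraries had correlations of -0.10, -0.06 and -0.06, and those of different-numbered libraries ran from -0.08 to 0.12. Whether the numbers pair the libraries was not tested. Leaving out 1 library gave 39 to 459 rises and 30 to 430 falls over all genes, and 0 to 1 rises and 0 to 1 falls among kinesins, with the filter applied again or, in a variant chosen after seeing the data, for the same 18762 genes. That variant repeats the fold changes of the fits with the filter applied again, so it adds no check of their sign. In that variant Kif20b also lost its call without KO replicate 3 (limma adjusted p = 0.0762). With 3 libraries a group and members below 20 normalized read counts, small changes of the low kinesins were not detectable.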
